A study of Mus musculus with 8 samples.

Results

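The genes described here are Mgmt, Msh3, Msh6, Pms2 and Brca1, which act in the repair of alkylated, mismatched or broken DNA, and the regions are every entry of the deposited list that lies in one of these 5 genes or within 5000 bp of it on the mouse genome mm10. That rule took 59 of the 220894 regions in the list, of which 15 belong to Mgmt, 17 to Msh3, 10 to Msh6, 6 to Pms2 and 11 to Brca1, with no region shared between members. DNA methylation was profiled by bisulfite sequencing of captured genomic DNA in 8 mouse cell lines, to ask where IDH mutant and IDH wild-type lines differ. The 4 IDH mutant brain tumour lines and the 2 immortalized astrocyte lines with wild-type IDH came from mice labelled N::TVA whose genotype included Cdkn2alox/lox and Atrxlox/lox, and the 2 IDH wild-type brain tumour lines, described as RAS gliomas, came from N::TVA mice with Cdkn2alox/lox. IDH status of the tumour lines therefore cannot be told apart from the other differences in genotype, or from the RAS label. N::TVA is the transgene that, in mice of this kind, lets neural progenitors take up avian retroviral vectors. Of the astrocyte lines, both carry PDGFA in their names and 1 expresses exogenous wild-type IDH1. All lines share a mixed background of C57Bl/6, 129 and FVB/n and each is represented by 1 sample.

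The list gives each region 1 score for the whole series and no value of any single line. Neither methylation levels nor the contrast between mutant and wild-type lines was analysed here for that reason. The values have no replicate error, no test was run on them, and how deeply any line was sequenced is unknown. The score is the authors' own, has no stated unit, and is a whole number of at least 100 with a median of 462. Because wider regions score higher, each score is given with its percentile among all regions of the list whose width lies within 50 bp, so that a percentile near 50 is an ordinary score for that width. What the score measures is not stated, so it is used only to rank regions within the list and is not read as a methylation level.

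MGMT removes alkyl groups from guanine in a single step that inactivates the protein. In human glioma, methylation of the CpG-rich MGMT promoter silences the gene and is measured because tumours without MGMT respond better to alkylating drugs such as temozolomide. If the lesion stays in the DNA it mispairs during replication, and mismatch repair then processes the mispair. MSH6 and MSH3 are alternative subunits of the MutS complexes that recognise mispaired bases and small loops, the first mainly base mismatches and the second mainly larger loops. PMS2 is the endonuclease subunit of the main MutL complex, which nicks the strand to be replaced. BRCA1 is a ubiquitin ligase that promotes repair of double-strand breaks by homologous recombination, and its promoter is silenced by methylation in some human tumours. Bisulfite sequencing reads methylation at CpG sites, so the promoter sequences below show where these sites lie.

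The promoter windows are shown because they differ in CpG content and in how far the list covers them. Each runs from 250 bases before the annotated start to 50 bases from it, 5′ to 3′ on the gene's own strand, from RefSeq on GRCm38.p6, the assembly that mm10 names, with CpG sites in capitals. Mgmt has 2 annotated starts and each of the other members has 1.
Mgmt, first start, chr7:136894336-136894635 (plus strand): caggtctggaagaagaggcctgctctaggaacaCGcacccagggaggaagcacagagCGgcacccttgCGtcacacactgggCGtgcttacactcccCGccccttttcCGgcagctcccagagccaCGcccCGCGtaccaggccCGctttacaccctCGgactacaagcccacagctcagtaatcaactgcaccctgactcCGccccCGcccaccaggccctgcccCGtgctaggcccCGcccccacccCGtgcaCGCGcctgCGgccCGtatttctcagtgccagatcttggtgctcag
Mgmt, second start, chr7:136912848-136913147 (plus strand): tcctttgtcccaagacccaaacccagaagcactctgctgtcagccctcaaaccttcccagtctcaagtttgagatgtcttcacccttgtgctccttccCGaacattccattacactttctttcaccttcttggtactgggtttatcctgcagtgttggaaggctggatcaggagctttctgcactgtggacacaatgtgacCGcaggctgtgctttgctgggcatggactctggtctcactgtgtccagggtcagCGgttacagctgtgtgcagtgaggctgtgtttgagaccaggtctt
Msh3, chr13:92354954-92355253 (minus strand): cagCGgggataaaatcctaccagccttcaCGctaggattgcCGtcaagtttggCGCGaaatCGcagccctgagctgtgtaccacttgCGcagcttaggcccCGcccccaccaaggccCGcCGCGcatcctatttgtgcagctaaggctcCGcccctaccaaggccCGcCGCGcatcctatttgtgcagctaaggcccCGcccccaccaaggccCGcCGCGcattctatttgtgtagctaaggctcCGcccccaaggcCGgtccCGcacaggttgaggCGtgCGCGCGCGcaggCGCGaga
Msh6, chr17:87974800-87975099 (plus strand): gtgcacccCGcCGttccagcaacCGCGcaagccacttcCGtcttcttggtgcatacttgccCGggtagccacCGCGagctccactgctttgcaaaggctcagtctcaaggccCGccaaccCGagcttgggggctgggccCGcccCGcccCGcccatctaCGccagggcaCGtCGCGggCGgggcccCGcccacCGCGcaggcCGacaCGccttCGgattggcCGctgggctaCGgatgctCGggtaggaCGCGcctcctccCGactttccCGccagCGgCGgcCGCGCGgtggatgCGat
Pms2, chr5:143909751-143910050 (plus strand): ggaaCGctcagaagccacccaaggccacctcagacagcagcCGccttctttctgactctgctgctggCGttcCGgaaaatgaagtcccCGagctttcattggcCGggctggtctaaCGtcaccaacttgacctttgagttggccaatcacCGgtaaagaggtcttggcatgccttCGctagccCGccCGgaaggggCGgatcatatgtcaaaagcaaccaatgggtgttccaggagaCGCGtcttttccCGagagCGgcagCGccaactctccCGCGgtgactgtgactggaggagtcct
Brca1, chr11:101551906-101552205 (minus strand): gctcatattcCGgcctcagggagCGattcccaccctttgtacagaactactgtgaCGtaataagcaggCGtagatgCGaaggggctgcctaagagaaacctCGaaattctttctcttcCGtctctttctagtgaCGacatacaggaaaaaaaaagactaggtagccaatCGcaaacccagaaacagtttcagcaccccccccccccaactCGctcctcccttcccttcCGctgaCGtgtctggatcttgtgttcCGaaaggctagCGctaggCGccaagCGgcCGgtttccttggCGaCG

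The Msh6 window is the richest in CpG, with 37 sites, more than 93.1% of 21262 promoter windows of protein-coding genes (ties counted half-way), whose median is 13. Msh3 has 29 sites and the first start of Mgmt has 20, above 83.7% and 65.2% of windows. Pms2 and Brca1 have 19 each, above 63.0%. The second start of Mgmt, which lies inside the gene, has only 3, and 21.0% of windows have fewer. GC boxes, the letters GGGCGG on either strand counted without overlap, were found 4 times each at the first Mgmt start, Msh3 and Msh6, 2 times at Pms2 and 0 times at Brca1, and 46.2% of windows hold at least 1. The letters CCAAT on either strand were found 3 times at Pms2 and once each at Msh6 and Brca1, and 38.2% of windows hold them.

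Every member had a region within 1000 bp of an annotated start, as did 74% of the 17491 protein-coding genes with a start in the table. The count of members is therefore what most promoters with this many CpG sites show: among starts with 14 to 24 sites in the window 98.1% had such a region, and with 25 or more 99.0%. Where the members part is at the start itself. The start base lay inside a region at Msh3, Pms2 and Brca1, as it did for 37.5% of genes. At Msh6 and at the first start of Mgmt it fell in a gap with a region close by on both sides. This layout was found at 16.7% of genes when both neighbours must lie within 500 bp.

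At the first start of Mgmt the gap runs from 136894541 to 136894640 on chromosome 7, a width of 100 bp. The region before it ends 46 bp upstream of the start, and the one after it begins 55 bp downstream. The annotated span of Mgmt begins further upstream, at 136894463, which lies inside the region before the gap. The layout at Mgmt therefore depends on which annotated position is taken as the start. The window printed above reaches into the gap by 95 bases, and those bases hold 8 of its 20 CpG sites. They are shown here because they are the part of the promoter, start included, that the list leaves out:
Mgmt, chr7:136894541-136894635 (plus strand): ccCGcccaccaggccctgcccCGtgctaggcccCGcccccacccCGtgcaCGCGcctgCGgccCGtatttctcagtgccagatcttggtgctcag
The other 12 CpG sites of the window lie in the upstream region. The list holds no methylation level, so a base outside every region is read as neither methylated nor unmethylated. Whether the capture reached the bases of the gap was not tested. Among the 2915 genes whose start is placed in this way the gap has a median width of 390 bp, and only 2.68% have a narrower one than Mgmt. The smallest distance between neighbouring regions in the list is 60 bp, so the 100 bp at Mgmt lies near the narrowest gap the list holds.

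At Msh6 the gap is wider and takes most of the CpG sites. It covers 87974881 to 87975090 on chromosome 17, or 210 bp, between a region that ends 170 bp upstream of the start and one that begins 41 bp downstream, and 16.9% of such gaps are narrower. All of it lies within the promoter window, where it holds 28 of the 37 CpG sites:
Msh6, chr17:87974881-87975090 (plus strand): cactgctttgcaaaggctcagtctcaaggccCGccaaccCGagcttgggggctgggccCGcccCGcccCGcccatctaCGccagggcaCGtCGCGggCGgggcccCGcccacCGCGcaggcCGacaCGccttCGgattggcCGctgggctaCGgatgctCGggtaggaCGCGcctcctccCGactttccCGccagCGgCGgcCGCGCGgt
By contrast, the windows of Msh3, Pms2 and Brca1 lie wholly within regions, with all of their 29, 19 and 19 CpG sites, and so does that of the second Mgmt start.

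**Figure D1:**
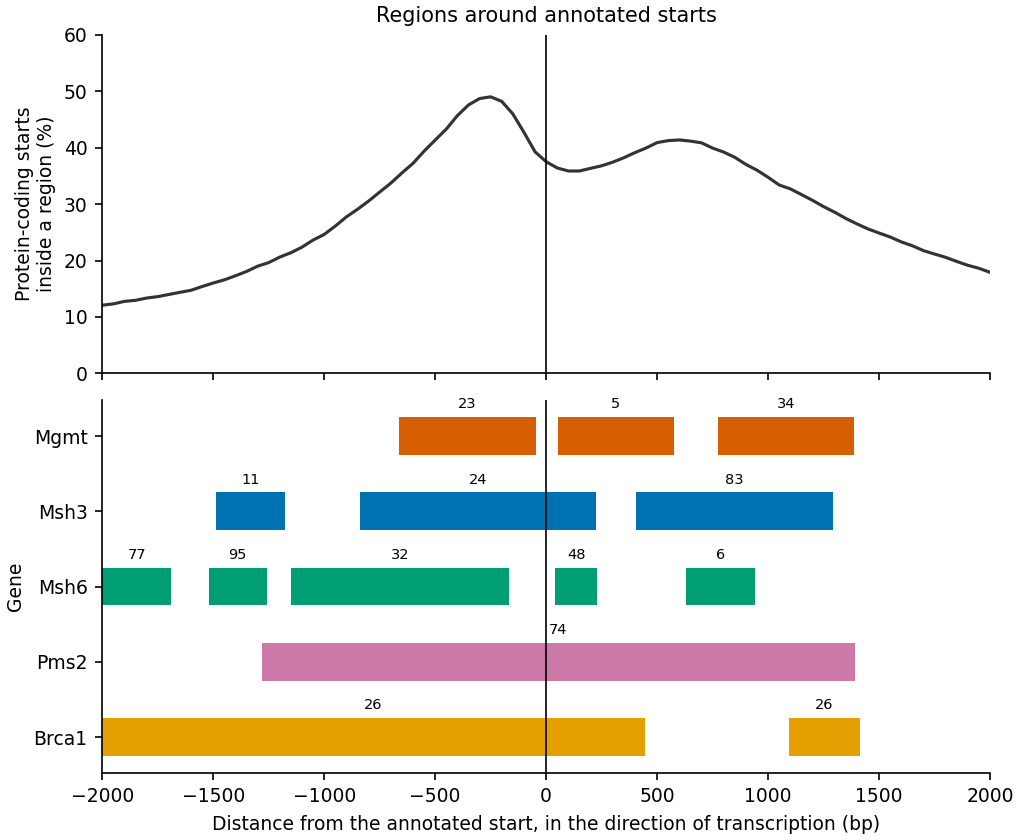
The upper panel plots, for 17491 protein-coding genes, the share whose base at each distance from the annotated start (bp, in the direction of transcription) lies inside a region of the list. The lower panel draws the regions of the 5 members over the same distances as bars, each marked with its score percentile for width. The vertical line is the annotated start (the first one for Mgmt). It falls between regions at Mgmt and Msh6 and inside a region at the other 3 genes.

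Starts that fall between regions were common where CpG sites were dense. Over all protein-coding genes, the share of bases inside a region was 49.0% at 250 bp upstream of the start, 35.9% at 100 bp downstream and 41.4% at 600 bp downstream, so the whole list dips just after the start. The share of starts that lie between regions was 1.04% with 0 to 4 CpG sites in the window, 6.18% with 5 to 13, 21.8% with 14 to 24 and 39.2% with 25 or more. Msh6, with 37 sites, belongs to the last of these groups and Mgmt to the one before. A start inside a region was most frequent with 14 to 24 sites, at 62.5%, the group of Pms2 and Brca1, and fell to 25.8% with 25 or more, the group of Msh3. The number of CpG sites moves with the layout in these shares, and its part in the gaps at Mgmt and Msh6 was not tested.

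Msh3 has a repeated promoter. A stretch of 39 bases occurs 2 times without a mismatch in its window, longer than the longest such repeat of 99.9% of windows, and its first 19 bases occur 3 times:
Msh3, 39 bases found 2 times: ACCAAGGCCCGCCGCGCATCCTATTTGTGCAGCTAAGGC
Msh3, 19 bases found 3 times: ACCAAGGCCCGCCGCGCAT
Direct repeats of 15 or more bases are found in 2.25% of promoter windows. The region that covers this stretch (92354781 to 92355840 on chromosome 13) is 1060 bp wide and scored 615, at the 24.4th percentile for its width. The region that follows it inside the gene (92353711 to 92354600) is 890 bp wide and scored 1231, at the 83.3rd percentile. Whether reads from the repeats were placed elsewhere was not tested.

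The promoter regions of Pms2 and Brca1 can be set side by side, since both are 2670 bp wide. The Pms2 region (143908721 to 143911390 on chromosome 5) scored 1357, at the 74.1st percentile, and the Brca1 region (101551511 to 101554180 on chromosome 11) scored 877, at the 25.9th percentile. Only 110 regions of the list fall within 50 bp of this width, so these percentiles are coarse. Each region covers the starts of a pair of genes that point away from each other. The start of Aimp2, which encodes a scaffold protein of the tRNA synthetase complex, lies 162 bp from that of Pms2, and the start of Nbr1, which encodes an autophagy receptor, lies 152 bp from that of Brca1. A region at such a promoter cannot be assigned to one gene of the pair. The next 2 regions upstream of Brca1 also lie in Nbr1, with scores of 432 and 357 at the 11.3rd and 81.2nd percentiles, far apart although less than 3 kb lies between their midpoints.

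Within the promoters, Mgmt had low scores for its widths. Its 3 regions around the first start scored 471, 257 and 552 at widths of 620, 520 and 610 bp, which are the 22.9th, 5.27th and 34.4th percentiles. The lowest of these begins 55 bp after the start, and had the lowest percentile of all 59 regions. The region over the second start (136912711 to 136913600) scored 710 at 890 bp, the 41.0th percentile. Set against promoter regions only, which as a class score lower for their width, the same 4 regions stood at the 38.6th, 11.9th, 49.2nd and 47.5th percentiles, all below 50 by this ranking too. Low ranks were not particular to Mgmt. By this ranking the region over the Brca1 start stood at the 19.8th percentile and that over the Msh3 start at the 29.4th. The other Msh3 promoter region stood at the 87.9th and that of Pms2 at the 82.3rd.

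Msh6 resembled Mgmt at its start. The region that ends before the gap (87973901 to 87974880) scored 652 at 980 bp, the 32.2nd percentile, and the narrow one after it scored 170 at 190 bp, the 48.1st. A further region at 87975681 to 87975990 scored 186 at 310 bp, the 6.37th percentile, the only member region other than the lowest of Mgmt that was below the 10th percentile. Regions below the 10th percentile make up 9.15% of the list. Set against promoter regions only, the Msh6 promoter regions stood at the 38.3rd, 57.9th and 14.2nd percentiles, in the order given. The one just after the gap was thus above 50 by this ranking, unlike any of Mgmt. The start-distal upstream side differed, with 3 regions between 1260 and 3279 bp before the start, at the 95.5th, 76.6th and 54.2nd percentiles. The first of these, with a score of 465 at only 260 bp, had the highest percentile of all member regions.

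Taking the 5 genes as 1 set, 2 of 11 promoter regions were above the 50th percentile for width, those of Pms2 and Msh3 already given, with a median of 32.2. By gene that is 2 of 5 members with a promoter region above 50, beside 43.7% of protein-coding genes. Over all 24276 promoter regions of the list the median was 38.9 and 39.2% were above 50, so promoters scored low for their width throughout. Ranked among promoter regions only, the median of the 11 was 38.6 and 3 were above 50. The 37 regions elsewhere in the member genes had a median of 53.2, with 23 (62.2%) above 50. Gene body regions of the whole list had a median of 50.9, with 51.0% above 50. Exons and introns were not separated, since exon positions were not used here.

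**Figure D2:**
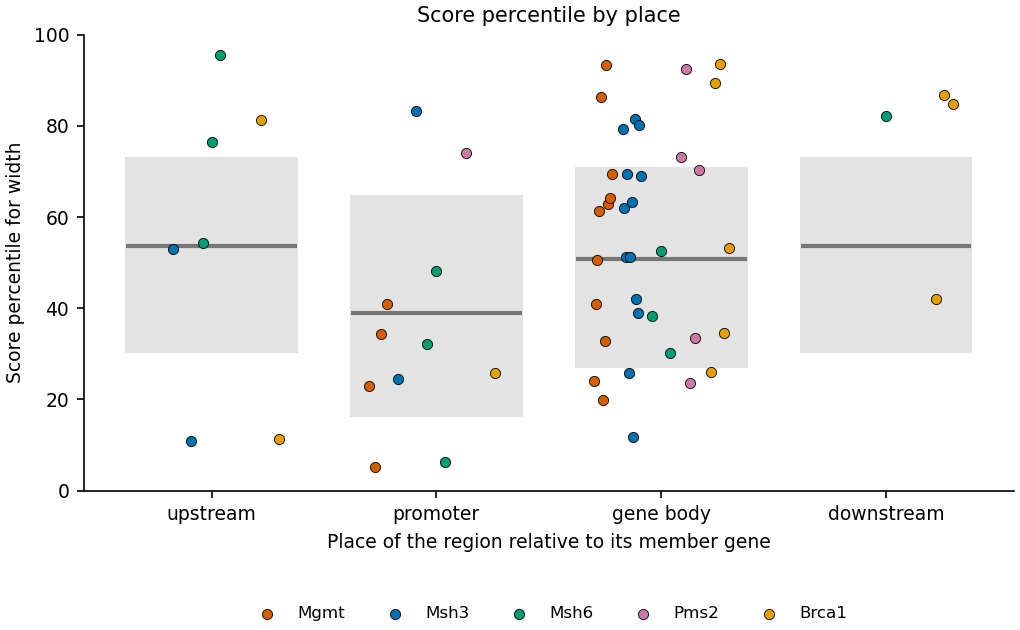
Each point is 1 of the 59 member regions, placed by where it lies relative to its gene, with its score percentile for width on the vertical axis (0 to 100) and the gene as colour. Grey boxes and bars give the quartiles and the median of the same class over the whole list (regions between genes for upstream and downstream); the 4 Mgmt promoter points lie between 5.27 and 41.0.

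Mgmt is the longest member, at 233731 bp (chromosome 7, 136894463 to 137128193, plus strand), and its regions fell into a low-scoring 5′ part and a mostly higher-scoring 3′ part. All 15 regions touch the gene itself. Between them lies a stretch of 73.7 kb with no region (136938401 to 137012080), or 31.5% of the gene. Genes of similar length have a longest empty stretch of 21.7% as a median, and 72.4% of them have a smaller one than Mgmt. The 6 regions before this stretch ran from the 5.27th to the 41.0th percentile with a median of 29.2, and 0 of them were above 50. The 9 regions after it ran from 19.9 to 93.4 with a median of 62.9, and 7 were above 50. The 4 promoter regions of Mgmt are among the first 6, and promoter regions score low for their width throughout the list. Ranked within their own class of region, the 5′ part had a median of 40.5 and the 3′ part 64.1, with 0 and 7 above 50. The division was chosen after the values were seen.

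The high scores of Mgmt lie deep in the gene. A region 153.6 kb from the first start (137047871 to 137048450) scored 1103 at 580 bp, the 86.3rd percentile. Another at 166.3 kb (137060691 to 137061100) scored 951 at 410 bp, the 93.4th percentile and the highest of the gene. Between these are 2 regions with scores of 288 and 347, at the 19.9th and 32.8th percentiles, so neighbours within 15 kb differed by most of the range. The remaining 5 regions of the 3′ part lay between the 50.5th and the 69.5th percentile, among them the widest of the gene at 1610 bp, which scored 1088.

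Msh3 (chromosome 13, 92211878 to 92355004, minus strand) had its regions spread over the gene with no such division. Its 17 regions scored from 151 to 1231, and their percentiles ran from 10.9 to 83.3 with a median of 53.0, with 11 above 50. None of them reached the 90th percentile, which 7.23% of all regions exceed. Inside the gene, the region of 970 bp at 77.7 kb from the start scored 1208, the 81.6th percentile, and a region of 420 bp at 48.8 kb scored 263, the 11.8th. A narrow region of 240 bp less than 1 kb from the latter scored 255, which for its width is the 63.4th percentile. The last 29.6 kb of the gene, towards the 3′ end, held no region. That is 20.7% of the gene, beside a median longest empty stretch of 25.6% in genes of similar length.

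Msh6 (chromosome 17, 87975050 to 87990892, plus strand) is the shortest member, at 15843 bp, and had the most regions for its length. Its window held 10 regions, or 3.87 per 10 kb, more than 88.2% of 2352 protein-coding genes of similar length, whose median was 5. By the share of the window covered, 16.9%, it stood above 70.8% of these genes, a lower rank than that of Brca1 (80.5%). Only 5 of the 10 touch the gene, and 4 others lie upstream of it. Inside the gene beyond the promoter the scores were 326, 516 and 515, at the 38.3rd, 52.6th and 30.2nd percentiles. The last 5642 bp of the gene, or 35.6%, held no region, beside a median longest empty stretch of 58.1% in genes of similar length. The next region downstream (87993021 to 87993760), at the 82.1st percentile, lies in Fbxo11, which encodes an F-box protein of a ubiquitin ligase.

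Pms2 (chromosome 5, 143909901 to 143972745, plus strand) had the fewest regions of the members and the highest median score percentile for width. Its 6 regions compare with a median of 10 in 1589 genes of similar length, of which 23.3% had fewer. Their scores from the 5′ to the 3′ end were 1357, 937, 1351, 521, 507 and 978, at percentiles of 74.1, 73.2, 92.4, 23.7, 33.4 and 70.3. The 4 high ones thus lie at the start, in the first part of the gene and at its 3′ end, and the 2 low ones follow each other at 23.0 and 31.9 kb from the start. Behind them, 29.9 kb or 47.5% of the gene held no region. Genes of similar length have a longest empty stretch of 37.0% as a median, and 67.2% of them have a smaller one than Pms2. Few regions did not mean little covered sequence: regions made up 8.21% of the Pms2 window, beside a median of 7.47% in genes of similar length, since the regions are wide.

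Brca1 (chromosome 11, 101488761 to 101551955, minus strand) had the widest span of scores. Its 11 regions scored from 185 to 1632 and covered 11.9% of its window, more than 80.5% of genes of similar length. Only 6 touch the gene, and 3 lie within 5000 bp beyond its 3′ end. The highest score of all members, 1632, belonged to a region of 1010 bp inside the gene, 32.6 kb from the start (101518871 to 101519880), at the 93.5th percentile. A region of 890 bp at 11.3 kb scored 1418, the 89.5th percentile. The region that follows the promoter within the gene, 1.3 kb from the start, scored 282 at the 26.0th percentile. Beyond the 3′ end the scores were 717, 728 and 1298, at the 42.1st, 86.7th and 84.7th percentiles.

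**Figure D3:**
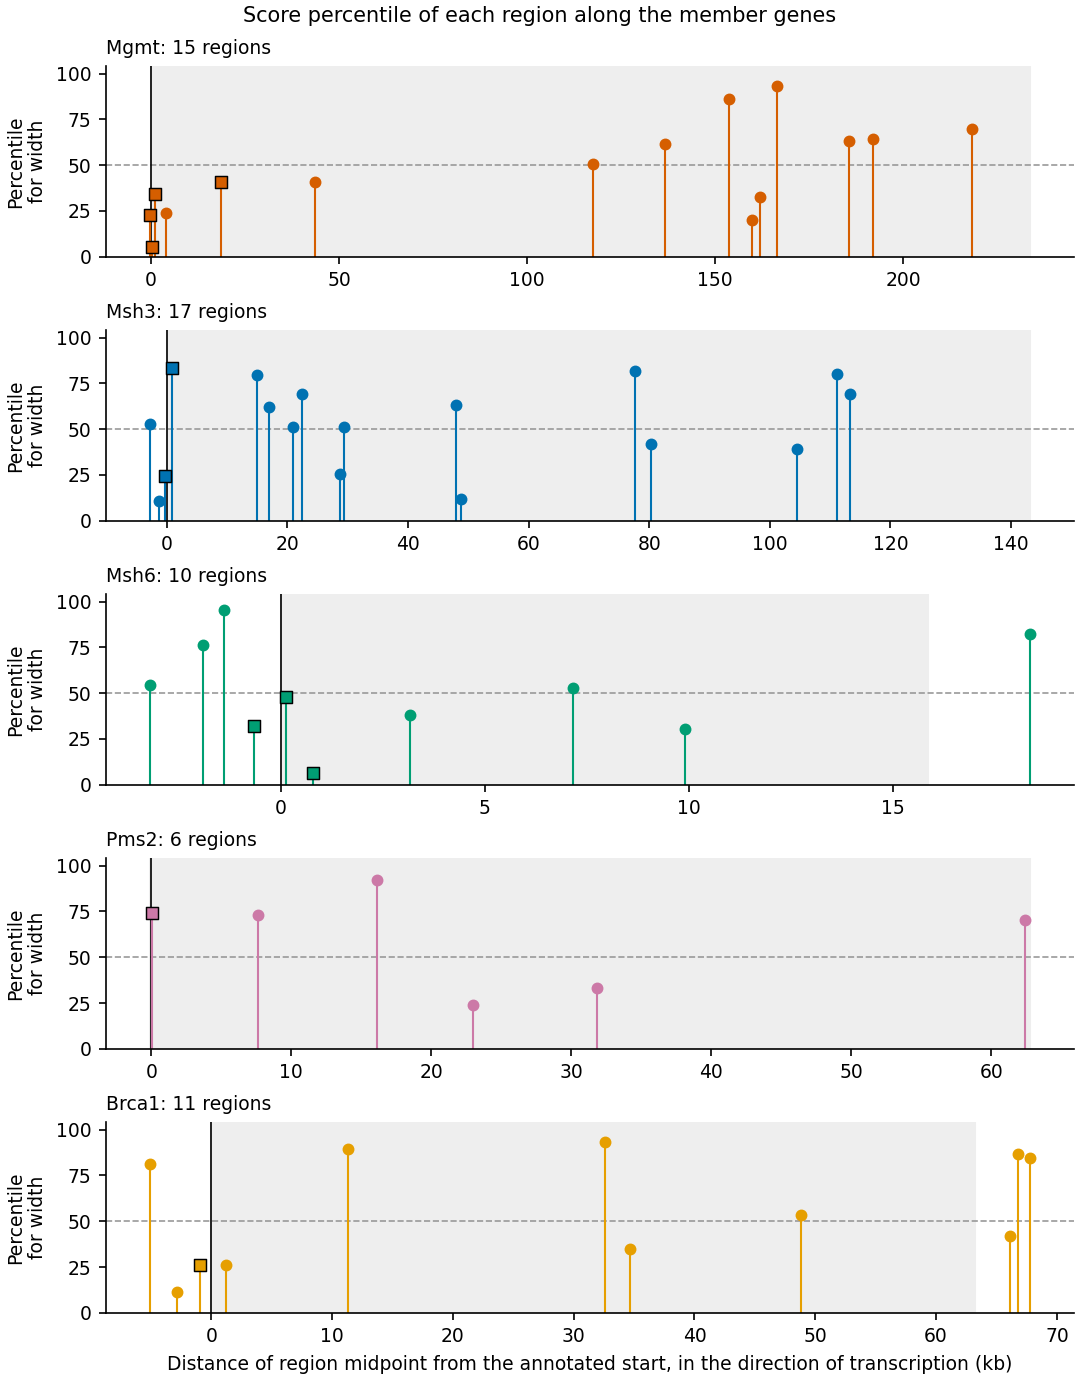
Each panel is 1 member gene, with the distance of each region's midpoint from the annotated start (kb, in the direction of transcription) on the horizontal axis and its score percentile for width on the vertical axis; squares are promoter regions, circles other regions, the grey band the gene and the dashed line 50. The first 6 regions of Mgmt all lie below the dashed line, whereas each of the other genes has regions on both sides of it along its length.

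**Figure D4:**
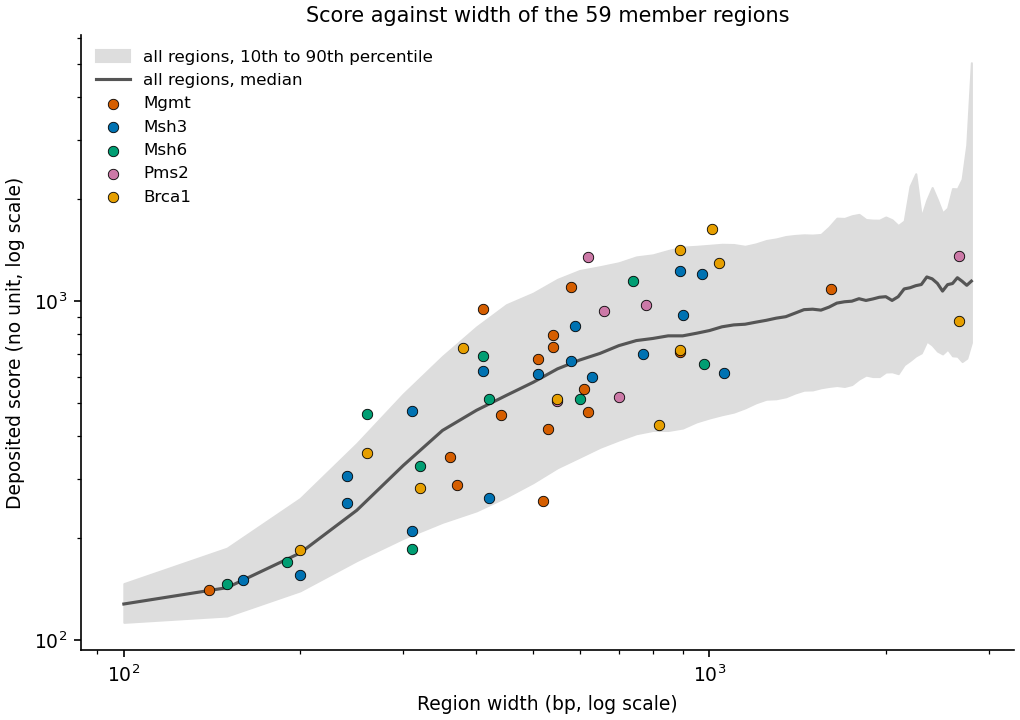
Deposited score (log scale) against region width (bp, log scale) for the 59 member regions, coloured by gene, over the 10th to 90th percentile band and the median of all regions at that width. The 4 points above the 90th percentile for their width belong 1 each to Mgmt, Msh6, Pms2 and Brca1, and the 2 below the 10th to Mgmt and Msh6.

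As whole genes, the members were spread over the order of protein-coding genes, with Pms2 near the top and Mgmt in the lower part. The median percentile over a gene's regions was 41.0 for Mgmt, 50.4 for Msh6, 53.0 for Msh3, 53.2 for Brca1 and 71.8 for Pms2. Among 16402 protein-coding genes with at least 3 regions, of which 46.3% have a median above 50, that placed Mgmt above 36.6% of genes, Msh6 above 54.3%, Msh3 above 59.8%, Brca1 above 60.3% and Pms2 above 91.9%. Among genes with a like number of regions (at most 2 more or fewer), Pms2 stood above 90.5% and Mgmt above 32.8%. Msh6, Msh3 and Brca1 lie within 3 points of each other, and the percentiles of single regions within each of these genes ran over more than 70 points, so no order among the 3 is read from them. Single regions also ran widely at Mgmt, from 5.27 to 93.4, and at Pms2, from 23.7 to 92.4 over only 6 regions. The places of these genes describe their medians and carry the same limit. Median scores not matched for width were 957.5 at Pms2, 717 at Brca1, 611 at Msh3, 552 at Mgmt and 490 at Msh6, which puts Msh6 last in place of Mgmt, and the median width ran from 365 bp at Msh6 to 820 bp at Brca1.

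**Figure D5:**
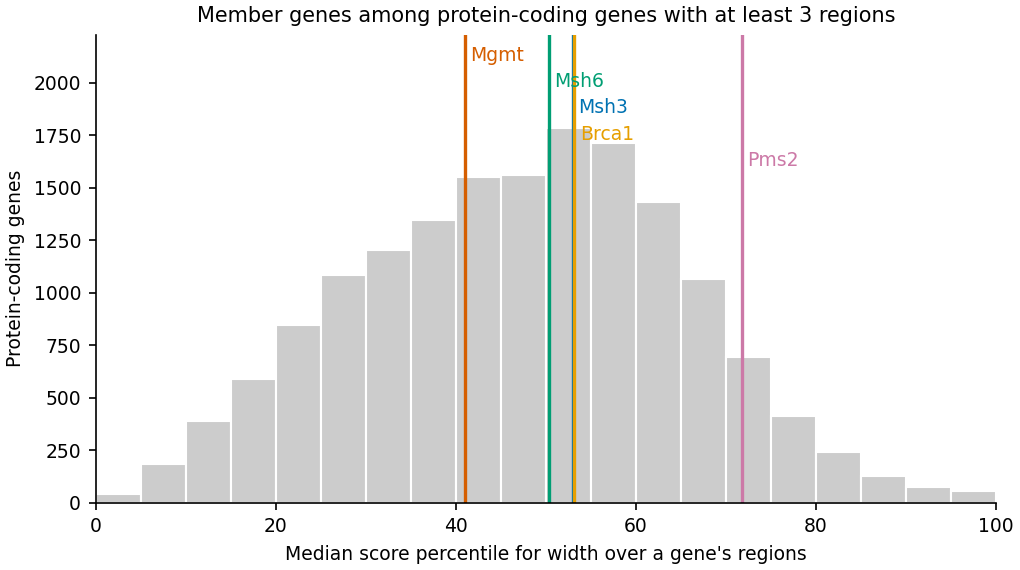
Histogram of the median score percentile for width over a gene's regions, for 16402 protein-coding genes with at least 3 regions, in steps of 5 percentile points. Coloured lines mark the members: Mgmt at 41.0, Msh6 at 50.4, Msh3 at 53.0, Brca1 at 53.2 and Pms2 at 71.8.

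Over all 59 regions together, scores were ordinary for their width. The median percentile was 52.6, beside 51.0 for the whole list, and 33 regions (55.9%) were above 50, beside 51.2% of the list. Above the 90th percentile were 4 regions (6.78%, beside 7.23% of the list) and below the 10th were 2 (3.39%, beside 9.15%). The 4 were 1 each at Mgmt, Msh6, Pms2 and Brca1, and 3 of them lie inside the gene, away from the promoter.

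The window added 12 of the 59 regions, which lie outside the genes, and 10 of these belong to Msh6 and Brca1. With no window Msh6 kept 5 of its 10 regions and Brca1 6 of its 11, and Brca1 also had 6 with 2000 bp. The outermost region kept was one of Brca1 that begins 4956 bp beyond the gene, with a score of 357 at the 81.2nd percentile. The nearest ones left out lay 5940 bp from Msh6, with a score of 553 at the 28.4th percentile, and 5967 bp from Msh3, with a score of 155 at the 47.8th. At Mgmt and Pms2 the nearest regions outside were more than 10 kb away, and every region kept touches the gene.

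Other genes of the same repair pathways were as often covered at the promoter. Of 59 genes on 3 lists, 49 have a start in the table, and all 49 had a region within 1000 bp of it, beside 74% of protein-coding genes. The start base was inside a region in 33 of them (67.3%, beside 37.5%) and between regions in 15 (30.6%, beside 16.7%), so both layouts seen in the members recur. Pathway lists are not matched to other genes for CpG content, and the shares given above by CpG content bear on these numbers.

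For the repair of alkylated bases other than by MGMT, 17 genes were listed, which code for the AlkB family of dealkylating enzymes, the glycosylase MPG and the factors of base excision repair. Over these the gene medians had a median of 52.0, and 9 of 17 were above 50, beside 46.3% of all genes with at least 3 regions. Lig3, which seals the nick at the end of base excision, had the highest at 74.6 over 4 regions, followed by Parp2, a sensor of strand breaks, at 71.9 over 9. Ascc2, of a complex that works with an AlkB enzyme, was among the lowest at 31.9 over 11.

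Of the 21 mismatch repair partners, which are further MutS and MutL homologues and the factors for excision and resynthesis, 18 had at least 3 regions, and 11 of these had a median above 50. Their median was 54.7. Msh4, a MutS homologue of meiosis, had the highest at 78.3 over 10 regions with a median score of 1234, followed by Rfc1, the large subunit of the clamp loader, at 70.1 over 12. The lowest were Pold1 at 14.1 over 15 regions and Pold4 at 15.8 over 3, which encode subunits of DNA polymerase delta. The other subunit genes of that polymerase, named after their values were seen, stood higher, with Pold2 at 54.8 over 5 regions and Pold3 at 60.5 over 7. Other homologues, named after their values were seen, were Msh5, the meiotic partner of Msh4, at 32.1 over 14 regions, and the MutL genes Pms1 at 59.1 over 13 and Mlh3 at 43.6 over 6. The MutS genes given here thus lay on both sides of 50, with Msh3 and Msh6 between Msh5 and Msh4.

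Partners of BRCA1 and other recombination factors numbered 21, of which 20 had at least 3 regions and 13 had a median above 50, with a median of 54.0. Rad52, a recombination mediator, and Uimc1, which brings BRCA1 to ubiquitin at breaks, both stood at 74.7, over 4 and 13 regions. Xrcc3, a recombination factor, had the lowest at 6.20 over 8 regions with a median score of 202. Brca1 itself, at 53.2, lay near the middle of its partners.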

How the data were processed

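DNA from 8 mouse lines was captured with a mouse methylation kit (Agilent SureSelect XT), per the labels' protocols. Novoalign 3.7.1, Picard and mm10 are named in the submitters' processing notes; for the calling of regions and the making of the score, a method is not given in the sources here. The deposited file is 1 list for the series, declared as narrowPeak, per the file headers, and its score is 1 whole number per region by the authors, at least 100, with no column of a single line.

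Genes and starts came from RefSeq tables on GRCm38.p6, with 21883 protein-coding genes, of which 17491 had a start and strand there. A region was counted if it shared at least 1 bp with a window. Percentiles are mid-ranks among regions within 50 bp of the same width, computed with Python 3.11.15, numpy 2.4.6 and pandas 2.3.3 and tested on simulated data. Genes of similar length are those within 20%, and gene medians needed 3 regions. Named genes are the members, every protein-coding gene in their windows, and the 2 highest and 2 lowest genes of each list by median percentile; the predicted gene beyond Pms2, which no member region touches, is not described, and some genes that the rule names are not reported here. The members and lists were chosen with earlier results of these data known. The planned comparison of lines was not run, because the list holds 1 value for all lines together.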

Additional observations from a re-analysis of the deposited data

How the results depend on the processing

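No paired analysis was possible because the list holds no value of a single line, and no line could be left out for the same reason. Of 113 alternative values, 106 stayed within 1.5 times the main count or within the sign-based 95% interval of the main median. That interval was taken over the regions of a gene, which are not replicates, and is wide where regions are few. For Pms2 it is the whole range of its 6 regions, from 23.7 to 92.4, so its 85.0 with widths not matched was counted as staying. The tally of medians is therefore a weak measure of stability. The total of 59 regions fell to 27 with regions of 400 to 800 bp, since fewer regions were counted, and ran from 47 with no window around the genes to 64 with 10000 bp; the other 6 values that moved were counts of Msh3, Msh6 and Brca1 under these narrower choices. The median percentile of all member regions ran from 49.1 by score divided by width to 62.5 with widths not matched. All 5 members had a promoter region under each of the 5 promoter settings run. The order of genes depended on the ranking: Pms2 was highest and Mgmt lowest in 8 of 11 settings, but Msh6 was lowest with no window (38.3) and with widths not matched (52.7), and by score divided by width Brca1 was lowest (39.5) and Msh3 highest (56.3). Mgmt rose from 41.0 to 47.7 when ranked within its own chromosome and to 49.2 within the class of region. The widest regions have few others of like width, which limits their percentiles, and depth per line is unknown.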
